A study of Homo sapiens with 54 samples.

Results

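Oxidative phosphorylation is carried out by 5 multi-subunit complexes of the inner mitochondrial membrane, and the genes described here encode their nuclear-encoded subunits. They were taken by symbol from the array's gene annotation: the NDUFA, NDUFB, NDUFC, NDUFS and NDUFV series for complex I, SDHA to SDHD for complex II, the UQCR series for complex III, the COX4 to COX8 series for complex IV and the ATP5 series for complex V. Only rows with exactly 1 symbol were used, and the row with the highest mean stood for its gene. This gave 79 of the 18417 genes measured, of which 33 belong to complex I, 3 to complex II, 8 to complex III, 16 to complex IV and 19 to complex V. The rule also admitted the pseudogenes UQCRBP1 and ATP5F1EP2 and the ATP5MG retrocopy ATP5MGL, whose probes may also bind transcripts of their near-identical parent genes, so their values are uncertain. SDHB, subunits with symbols outside these series and the subunits encoded by mitochondrial DNA were not analysed here.

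Complexes I and II pass electrons from NADH and succinate to ubiquinone, complex III passes them to cytochrome c, and complex IV passes them to oxygen. Complexes I, III and IV pump protons as they do so, and complex V, ATP synthase, lets the protons flow back to make ATP. Each complex has a small set of core subunits that hold the catalytic centres and, apart from complex II, a larger set of accessory subunits needed for assembly and stability. Tumour cells draw on both glycolysis and this chain for ATP, and the chain also regenerates the oxidised cofactors that biosynthesis needs.

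All arrays were of NCI-H460, a cell line of human large cell lung carcinoma, grown without serum before and during treatment. Cells were pretreated with nicotine (5 uM), with cigarette smoke extract (dosed to contain 5 uM nicotine) or with nothing, and 2 h later they received ionizing radiation (6 Gy, from a cesium source), cisplatin (1 uM, a DNA-crosslinking drug) or nothing. RNA was harvested 2 h or 24 h after that second treatment. With 3 arrays each, the 18 groups were radiation, cisplatin, smoke extract, nicotine, radiation + smoke extract, radiation + nicotine, cisplatin + smoke extract, cisplatin + nicotine and untreated cells, at each time. Every culture came from 1 line and 1 experiment on 9 plates, and no effect of plate was tested, since the sources used here do not say which culture lay on which plate.

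Levels are given on a log2 scale, and since probes differ in response, levels of different genes were not compared. A gene was called when the moderated test of limma gave a Benjamini-Hochberg adjusted p under 0.05 over all 18417 genes, from 1 fit of the 18 groups. Changes are log2 differences, with the standard error (SE) of the fit after ±. A share of all genes given without a direction counts calls either way. Arrays of a group correlated with each other at 0.979 to 0.996 and none were identical. The line's keratin genes were high (KRT8 from 11.80 to 12.16) while the epithelial adhesion genes EPCAM (5.02 to 5.66) and CDH1 (4.78 to 5.39) were low. The mean level of the 4 measured markers of each other cell type ran from 5.96 to 6.36 for leukocytes, 5.61 to 6.06 for fibroblasts, 5.10 to 5.72 for endothelium and 5.95 to 6.47 for muscle. Within these lists CD68 ran from 9.16 to 9.60, COL1A1 from 7.29 to 7.90, LUM from 5.75 to 7.12 and ACTA1 from 7.28 to 7.88. The fibroblast mean was higher, without overlap, at 24 h in radiation + smoke extract (5.99 to 6.05) and cisplatin + smoke extract (5.97 to 6.06) than in untreated cells (5.62 to 5.81). At 2 h it was also higher, without overlap, in radiation + smoke extract (5.84 to 5.90) and cisplatin + smoke extract (5.82 to 5.85). Untreated cells at 2 h had a fibroblast mean of 5.69 to 5.74. The part of the fibroblast mean in the results of the groups with smoke extract was not tested. The labels were checked with CDKN1A, a p53 target, and CYP1A1, a target of the aryl hydrocarbon receptor: at 24 h, CDKN1A rose by 0.77 ± 0.16 after radiation (adjusted p = 0.000201) and CYP1A1 by 3.91 ± 0.14 after smoke extract (adjusted p = 1.54e-26), while CDKN1A had a change of 0.26 ± 0.16 after cisplatin (adjusted p = 0.358).

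Many of the subunit genes were lower at 24 h in cells given radiation or smoke extract, alone or combined, than in untreated cells. Fewer were called lower after cisplatin alone, but radiation set directly against cisplatin at 24 h gave 4 called members (13.0% of all genes). Smoke extract was not tested directly against cisplatin. Nicotine alone gave 0 called members (0.00543% of all genes called lower). In the other treatments at 24 h, genes called lower numbered from 15 of 79 after cisplatin alone (1.65% of all genes called lower) to 46 of 79 after cisplatin + smoke extract (12.4% of all genes called lower). A few members rose in some groups. At 2 h limma called 0 members in any treatment, where 1.70% of all gene tests, pooled over the 8 treatments, were called. The difference between the effects at 24 h and 2 h, tested directly, was called for 32 members for radiation (13.0% of all genes), 4 for smoke extract (6.29% of all genes) and 0 for cisplatin (0.141% of all genes). The mean over 69 genes (the members without the pseudogenes, the retrocopy, 6 tissue-restricted isoforms and the inhibitor ATP5IF1), set against untreated cells at 24 h, was -0.38 ± 0.13 after radiation, -0.24 ± 0.17 after cisplatin, -0.28 ± 0.17 after smoke extract and -0.12 ± 0.10 after nicotine (SD, n = 3 each). The combined treatments gave -0.39 ± 0.15 for radiation + smoke extract, -0.27 ± 0.01 for radiation + nicotine, -0.39 ± 0.04 for cisplatin + smoke extract and -0.29 ± 0.06 for cisplatin + nicotine (SD, n = 3 each). Each of the 24 treated arrays at 24 h except 1 of nicotine alone lay below all 3 untreated arrays of that time, which ran from -0.04 to 0.03. The 27 arrays at 2 h, the untreated ones included, ran from -0.12 to 0.13. These are RNA extracts of whole cultures, so less of a transcript per cell and fewer cells with that transcript cannot be told apart.

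**Figure D1:**
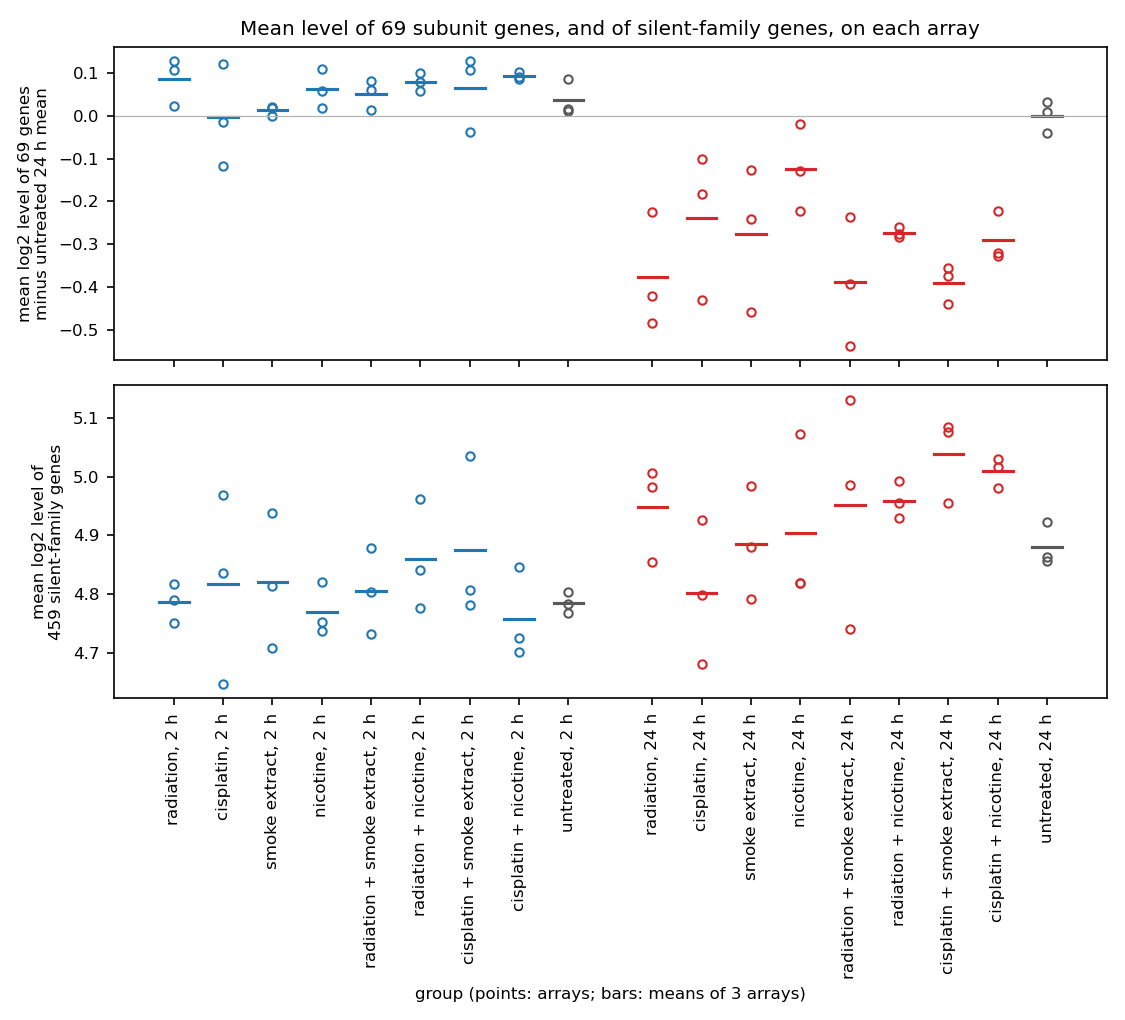
Upper panel, mean log2 level of 69 subunit genes on each array minus the mean of untreated cells at 24 h; lower panel, mean log2 level of 459 genes of families silent in most tissues; circles are arrays, bars are means of 3 arrays, with 2 h groups on the left and 24 h groups on the right. The treated 24 h arrays run from -0.54 to -0.02 in the upper panel and the 2 h arrays from -0.12 to 0.13.

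Means by complex were taken over the same 69 genes, so complex IV is 10 of its 16 genes here, without the 6 tissue-restricted isoforms. The mean over these complex IV genes was -0.57 ± 0.24 after radiation at 24 h and that over complex II genes -0.54 ± 0.27. Complex I gave -0.31 ± 0.13, complex III -0.39 ± 0.19 and complex V -0.35 ± 0.04 (SD, n = 3). After smoke extract the same means were -0.42 ± 0.22 for complex IV, -0.56 ± 0.12 for complex II, -0.23 ± 0.15 for complex I, -0.30 ± 0.17 for complex III and -0.22 ± 0.17 for complex V. After cisplatin + smoke extract they were -0.64 ± 0.08 for complex IV, -0.59 ± 0.03 for complex II, -0.33 ± 0.05 for complex I, -0.41 ± 0.02 for complex III and -0.30 ± 0.06 for complex V. The means of complexes II and IV both lay below those of complexes I, III and V in 7 of the 8 treatments at 24 h, the exception being nicotine (complex III -0.17, complex IV -0.16), but on 15 of the 24 treated arrays. On the third radiation array complex V (-0.31) lay below complex II (-0.23). The complex II mean covers 3 genes, among them SDHD (-1.08 after radiation) and SDHC (-0.46, or -0.10 in its second row). The order of the complexes with the tissue-restricted isoforms kept was not examined, and the difference between complexes was not tested.

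Genes of families silent in most tissues, such as olfactory receptors, taste receptors, keratin-associated proteins and beta-defensins, were taken to show the background of an array. Their level differed between arrays. The families were taken by symbol, so members expressed in these cells, if any, were not left out. Over 459 such genes the mean at 24 h was 4.95 after radiation, 4.80 after cisplatin, 4.89 after smoke extract, 5.04 after cisplatin + smoke extract and 4.88 in untreated cells. The array with the highest silent-family mean had the lowest subunit mean in 7 of the 9 groups at 24 h and in 7 of the 9 at 2 h. The exceptions at 24 h were nicotine and cisplatin + nicotine. The 3 cisplatin arrays had subunit means of -0.18, -0.43 and -0.10 with silent-family means of 4.80, 4.93 and 4.68, and the 3 smoke extract arrays had -0.24, -0.13 and -0.46 with 4.88, 4.79 and 4.98. The radiation arrays had -0.42, -0.48 and -0.23 with 4.98, 5.01 and 4.85. The 3 nicotine arrays had -0.02, -0.13 and -0.22 with 4.82, 5.07 and 4.82. With the silent-family mean as a covariate the count of called members was 47 for radiation (3 higher, 44 lower), 33 for cisplatin (all lower) and 41 for smoke extract (3 higher, 38 lower), against 46, 15 and 36 without it. With that covariate 12.0% of all genes were called lower and 14.0% higher for radiation, 3.82% and 2.90% for cisplatin, and 10.4% and 11.4% for smoke extract.

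Radiation at 24 h was the first comparison. Of the 79 genes, 44 fell and 2 rose, where the test called 11.0% of all genes lower and 10.0% higher. The median change of the 79 was -0.34, beside 0.03 over all genes, and 68 of the 79 had a change below 0. The genes that fell numbered 18 in complex I, 2 in complex II, 5 in complex III, 8 in complex IV and 11 in complex V. Falls ran from -0.20 to -1.21. Leaving out 1 array at a time gave 32 to 50 called members.

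**Figure D2:**
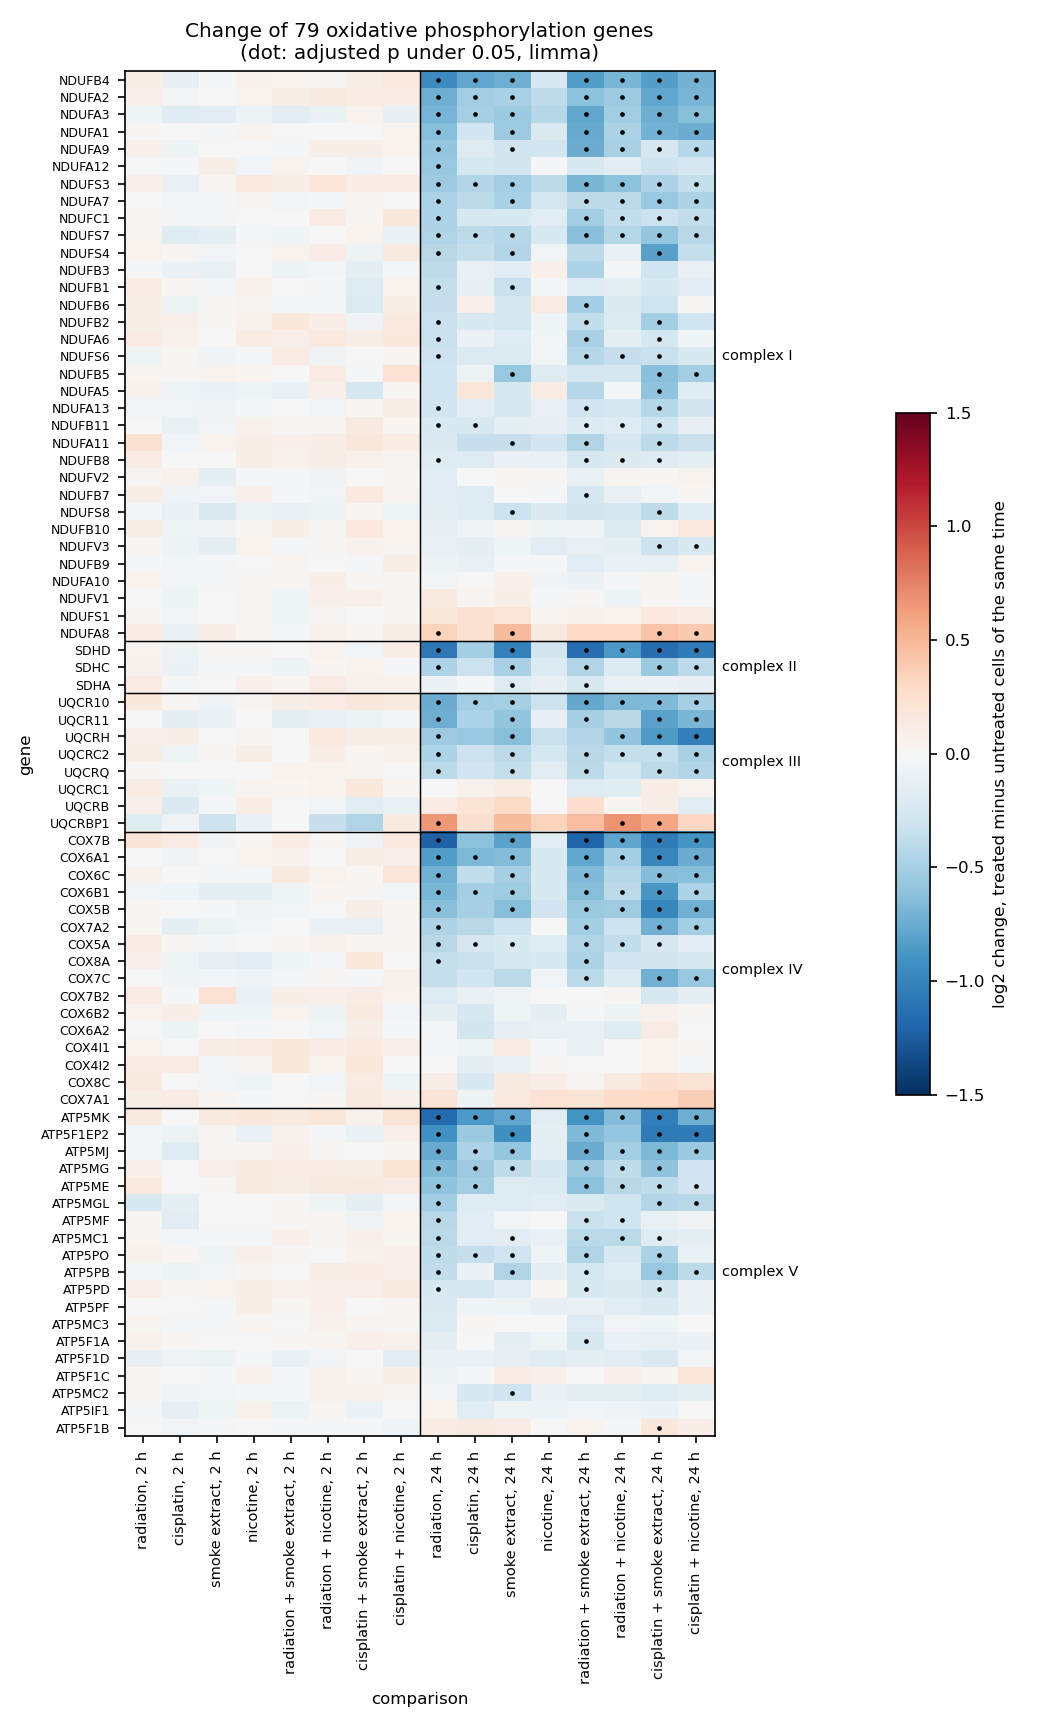
Log2 change of the 79 genes (rows, by complex, in order of the change after radiation at 24 h) in 16 comparisons with untreated cells of the same time (columns; 2 h on the left, 24 h on the right); blue is lower and red higher in treated cells, and a dot marks an adjusted p under 0.05. The 2 h columns hold 0 dots, and the radiation column at 24 h holds 46.

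The counts after radiation are given by role, and differences between roles were not tested. In complex I, 16 of 27 accessory subunits fell and 1 rose, and 2 of 6 core subunits fell. These 2 were NDUFS3 (-0.55 ± 0.08, adjusted p = 2.53e-06) and NDUFS7 (-0.45 ± 0.10, adjusted p = 0.000969). The other core subunits had changes of 0.16 ± 0.07 for NDUFS1, 0.13 ± 0.08 for NDUFV1, -0.15 ± 0.11 for NDUFS8 and -0.16 ± 0.08 for NDUFV2. In complex V, all 5 small subunits of the membrane part fell and 3 of 4 genes of the peripheral stalk fell. None of the 4 genes of the F1 part were called. The F1 genes had changes of -0.14 ± 0.06 (ATP5F1A), 0.11 ± 0.05 (ATP5F1B), -0.08 ± 0.09 (ATP5F1C) and -0.10 ± 0.10 (ATP5F1D). ATP5F1A and ATP5F1B were the 2 of the 4 with an unadjusted p under 0.05. In complex IV, 8 of the 10 widely expressed subunits fell. The exceptions were COX7C (-0.35 ± 0.16) and COX4I1, the subunit that regulates the enzyme by binding ATP (-0.02 ± 0.07).

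**Figure D3:**
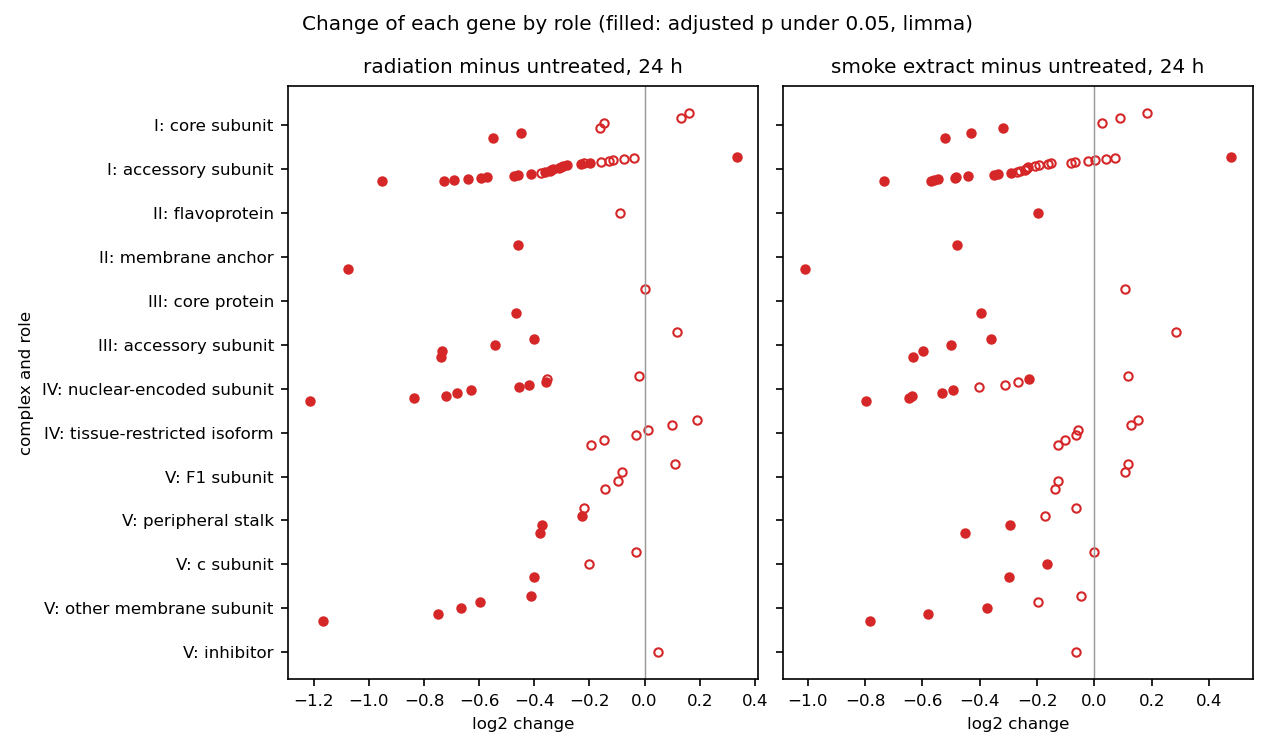
Log2 change of each gene (x axis) after radiation (left) and smoke extract (right) at 24 h, minus untreated cells, by complex and role (rows; the small vertical offset only separates points); filled points have an adjusted p under 0.05. The 5 small membrane subunits of complex V run from -1.17 to -0.41 after radiation and the 4 F1 subunits from -0.14 to 0.11.

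COX7B, a small subunit of complex IV, fell the most. Its levels were 7.27, 7.16 and 8.07 in irradiated cells, against 8.98, 8.61 and 8.56 in untreated cells. All 3 irradiated arrays lay below the 3 untreated ones, the third by the least. The fall was 2.32-fold (-1.21 ± 0.26, adjusted p = 0.000363). COX6A1 (-0.84 ± 0.17), COX6C (-0.72 ± 0.16) and COX6B1 (-0.68 ± 0.13) followed, all of them small nuclear-encoded subunits around the catalytic core, with adjusted p from 7.46e-05 to 0.000673.

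ATP5MK is a small membrane subunit of ATP synthase that takes part in joining the enzyme into dimers. It stood at 9.70, 9.63 and 10.64 in irradiated cells, against 11.26, 11.13 and 11.08 in untreated cells. The groups did not overlap, and the third irradiated array was again the nearest to the untreated ones. The fall was 2.24-fold (-1.17 ± 0.24, adjusted p = 0.00026). ATP5MJ (-0.75 ± 0.12) and ATP5MG (-0.67 ± 0.12), neighbours of ATP5MK in the membrane part, fell with adjusted p of 6.56e-06 and 1.98e-05.

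SDHD, which with SDHC anchors complex II in the membrane and binds ubiquinone, had levels of 8.46, 8.54 and 9.34 in irradiated cells, against 9.92, 9.76 and 9.88 in untreated cells. The 3 irradiated arrays were the lower ones, and the fall was 2.11-fold (-1.08 ± 0.22, adjusted p = 0.000197). SDHC gave 10.60, 10.56 and 11.05 in irradiated cells, against 11.18, 11.19 and 11.23 in untreated cells, and fell by 0.46 ± 0.11 (adjusted p = 0.00205). SDHA, the flavoprotein that oxidises succinate, gave 10.28, 10.32 and 10.39 in irradiated cells, against 10.40, 10.43 and 10.42 in untreated cells, a change of -0.09 ± 0.06 that was not called (adjusted p = 0.331) although the groups did not overlap. SDHD and SDHC each had a second row: that of SDHD fell too, by 0.95 in irradiated cells, while that of SDHC, at a lower mean, had a change of -0.10 and was not called (adjusted p = 0.76 over all rows). For SDHC the call therefore rested on which row was used.

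NDUFB4, an accessory subunit in the membrane arm of complex I, stood at 8.58, 8.61 and 8.84 in irradiated cells, against 9.73, 9.56 and 9.59 in untreated cells. The groups were apart by more than the spread within either, and the fall was 1.93-fold (-0.95 ± 0.13, adjusted p = 4.55e-07). NDUFA2 (-0.73 ± 0.14), NDUFA3 (-0.69 ± 0.10) and NDUFA1 (-0.64 ± 0.15), further accessory subunits, fell with adjusted p from 1.37e-06 to 0.00153. NDUFA8, an accessory subunit imported by the disulfide relay of the intermembrane space, went the other way, at 9.25, 9.21 and 8.93 in irradiated cells, against 8.89, 8.71 and 8.79 in untreated cells. Its rise was 0.33 ± 0.12 (adjusted p = 0.0372).

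UQCR10, a small subunit of complex III beside cytochrome c1, gave 8.44, 8.47 and 8.73 in irradiated cells, against 9.28, 9.33 and 9.25 in untreated cells. The groups lay apart, with a fall of 1.67-fold (-0.74 ± 0.10, adjusted p = 4.13e-07). UQCR11 (-0.74 ± 0.17), UQCRH, the hinge protein (-0.54 ± 0.19), and the core protein UQCRC2 (-0.46 ± 0.12) also fell, with adjusted p of 0.00119, 0.0325 and 0.00273. The other core protein, UQCRC1, gave 8.22, 8.28 and 8.05 in irradiated cells, against 8.19, 8.14 and 8.20 in untreated cells, a change of 0.00 ± 0.09. The pseudogene UQCRBP1 rose (0.64 ± 0.19, adjusted p = 0.0109) and the pseudogene ATP5F1EP2 fell (-0.91 ± 0.24, adjusted p = 0.0033).

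**Figure D4:**
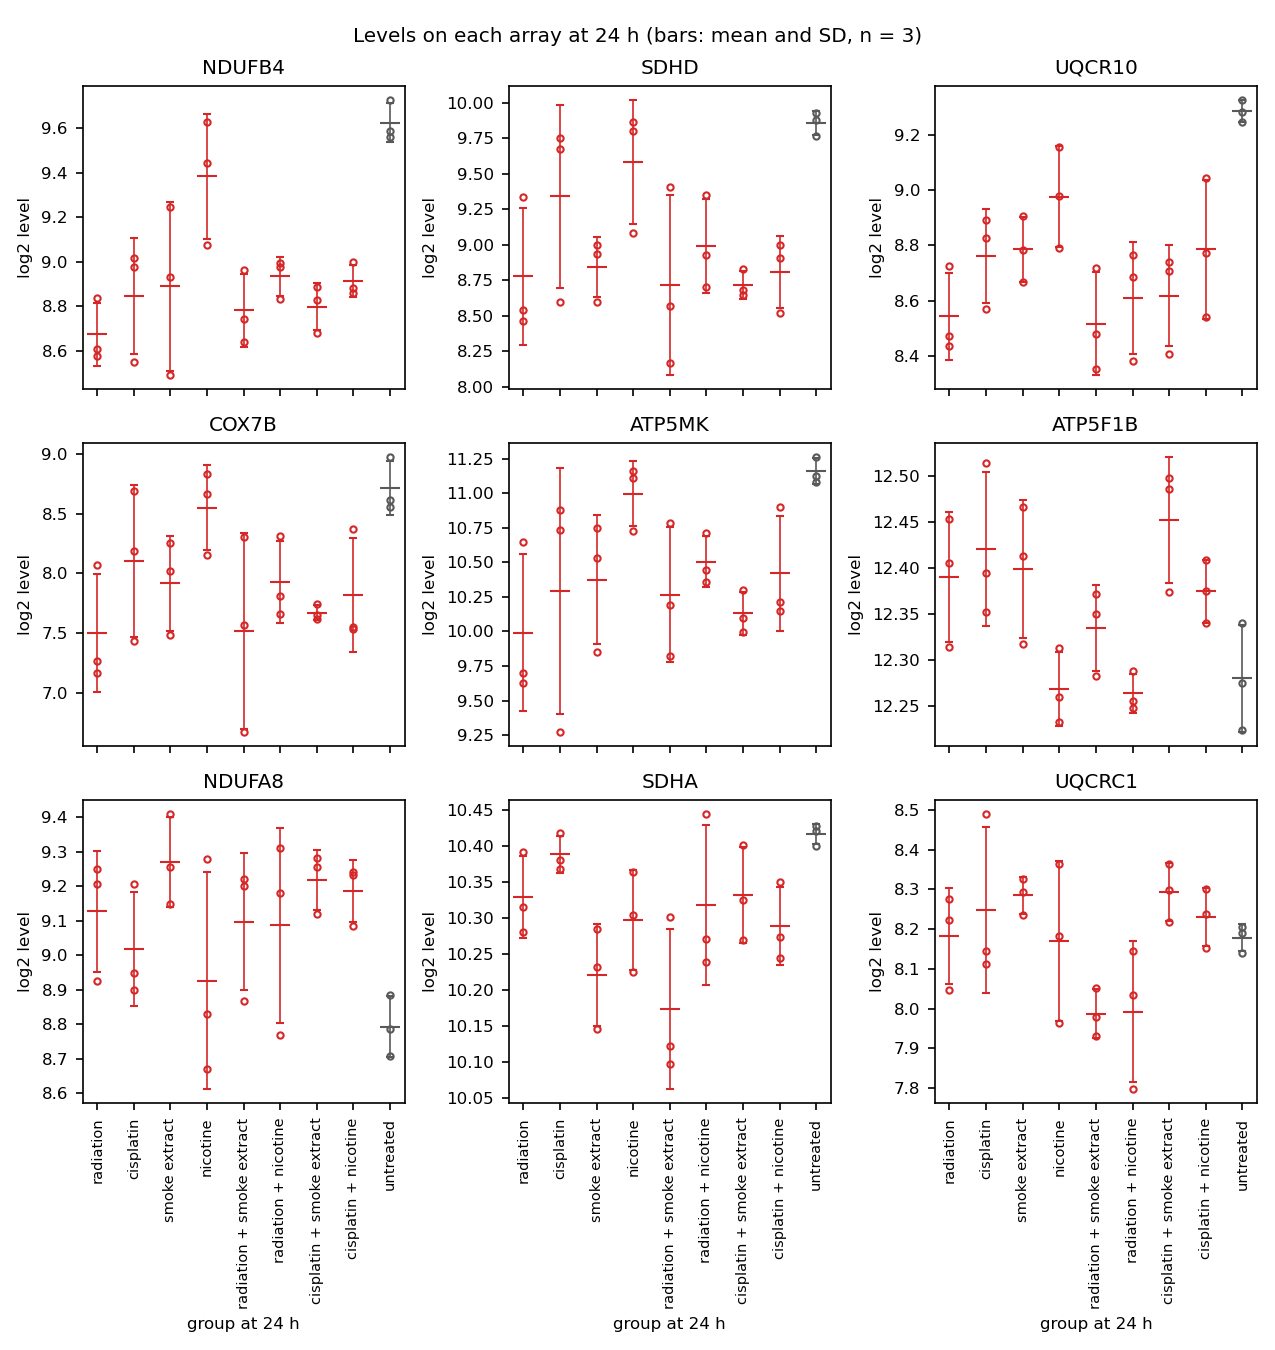
Log2 levels of 9 genes on each array at 24 h (circles) with the group mean and SD (bars, n = 3); groups on the x axis, with untreated cells on the right and levels on separate y axes. For NDUFB4, UQCR10 and SDHD all 3 irradiated arrays lie below the untreated ones. For UQCRC1 they lie on both sides of the untreated ones, and for ATP5F1B among or above them.

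The c subunit, which forms the rotating ring of ATP synthase, is encoded by 3 genes whose mature proteins are the same. ATP5MC1 gave 11.91, 11.79 and 11.77 in irradiated cells, against 12.23, 12.22 and 12.22 in untreated cells, and fell by 0.40 ± 0.05. ATP5MC2 gave 9.81, 9.85 and 9.62 in irradiated cells, against 9.75, 9.80 and 9.83 in untreated cells (-0.03 ± 0.08, adjusted p = 0.855), and ATP5MC3 gave 6.48, 6.24 and 6.13 in irradiated cells, against 6.40, 6.53 and 6.52 in untreated cells (-0.20 ± 0.08, adjusted p = 0.0751). Of the 3 genes, ATP5MC1 alone was called after radiation. The 3 untreated arrays of ATP5MC1 were close together, and all irradiated ones lay below them.

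Of the 20 changes named for radiation, 14 passed the threshold under all of the alternatives tried. On leaving out 1 array, the call of NDUFA8 was lost when untreated 24 h replicate 2 (adjusted p = 0.139) or 3 (0.0866) was left out, and without radiation 24 h replicate 1 (0.181) or 2 (0.147). UQCRH lost its call with untreated 24 h replicate 1 (adjusted p = 0.0648) or 3 (0.156) left out and without radiation 24 h replicate 1 (0.111) or 2 (0.221). UQCRBP1 lost its call with untreated 24 h replicate 3 (adjusted p = 0.128) left out, or radiation 24 h replicate 2 (0.167), and those of UQCRC2 (0.0531) and ATP5F1EP2 (0.0569) without radiation 24 h replicate 2.

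The promoters of the genes with the largest fall in each complex are shown because these genes fell together, with that of NDUFA8 for contrast. Each is the stretch of 120 bases just before the annotated start, 5′ to 3′ on the gene's strand, from RefSeq on GRCh38.p14. Capitals mark matches to an NRF1 motif (GCGCANGCG) or an ETS motif (CCGGAAG) on either strand. NRF1 and GABP, an ETS factor, are known to bind the promoters of many respiratory genes.
NDUFB4 (chr3:120596216-120596335, plus strand): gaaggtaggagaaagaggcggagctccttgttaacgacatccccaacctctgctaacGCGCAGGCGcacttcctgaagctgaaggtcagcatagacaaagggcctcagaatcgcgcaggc
SDHD (chr11:112086753-112086872, plus strand): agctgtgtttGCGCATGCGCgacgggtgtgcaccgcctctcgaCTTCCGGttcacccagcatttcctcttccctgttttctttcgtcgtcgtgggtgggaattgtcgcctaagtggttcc
UQCR10 (chr22:29767249-29767368, plus strand): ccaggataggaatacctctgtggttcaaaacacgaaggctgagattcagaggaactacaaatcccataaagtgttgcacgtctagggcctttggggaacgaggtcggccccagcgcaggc
COX7B (chrX:77899348-77899467, plus strand): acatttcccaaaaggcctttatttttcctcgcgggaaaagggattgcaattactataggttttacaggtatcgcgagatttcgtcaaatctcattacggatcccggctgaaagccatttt
ATP5MK (chr10:103396476-103396595, minus strand): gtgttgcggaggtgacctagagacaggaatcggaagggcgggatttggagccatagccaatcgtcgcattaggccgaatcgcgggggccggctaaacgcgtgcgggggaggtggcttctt
NDUFA8 (chr9:122159780-122159899, minus strand): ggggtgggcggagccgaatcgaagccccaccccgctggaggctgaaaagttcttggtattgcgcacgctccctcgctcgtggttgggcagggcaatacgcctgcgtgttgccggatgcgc

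In these windows SDHD held an NRF1 match that reads on both strands and an ETS match, NDUFB4 held 1 NRF1 match, and UQCR10, COX7B, ATP5MK and NDUFA8 held neither. Within the 250 bases searched below, ATP5MK did hold an ETS match. A RefSeq promoter entry was found for 65 of the 79 genes. In the 250 bases before the start, the NRF1 motif was in 20 of the 65 (30.8%), where 7.98% of the 27305 genes with an entry held it. The ETS motif was in 17 (26.2%, against 10.2% of all genes) and a YY1 motif (AAGATGG, either strand) in 5 (7.69%, against 4.49%). With the 50 bases after the start included, the YY1 motif was in 17 of the 65 (26.2%, against 7.11% of all genes). In that longer stretch the NRF1 motif was in 22 (33.8%, against 9.02%) and the ETS motif in 20 (30.8%, against 12.2%). The NRF1 motif can match both strands at 1 place, as in SDHD, which counts once here, and a match is a description, not a binding site. The median change after radiation at 24 h was -0.54 for the 17 genes with the ETS motif and -0.34 for the 48 without. It was -0.41 for the 20 with the NRF1 motif and -0.35 for the 45 without. For the YY1 motif it was -0.35 for the 5 with it and -0.36 for the 60 without. These medians are given as a description.

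Smoke extract alone was compared with untreated cells at 24 h in the same way. Of the 79 genes, 35 fell and 1 rose, where 7.40% of all genes were called lower and 8.67% higher. The median change was -0.23, beside 0.01 over all genes. Falls numbered 13 in complex I, 3 in complex II, 5 in complex III, 6 in complex IV and 8 in complex V. The count was 23 without untreated 24 h replicate 1 and 12 without smoke extract 24 h replicate 3, the array with the lowest subunit mean of its group, and reached at most 40 on leaving out another array.

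By role, 3 of 6 core and 10 of 27 accessory subunits of complex I fell, and 1 accessory subunit rose. The core subunits that fell were NDUFS3 (-0.52 ± 0.08), NDUFS7 (-0.43 ± 0.10) and NDUFS8 (-0.32 ± 0.11), with adjusted p of 1.36e-05, 0.00251 and 0.0319. All 3 measured subunits of complex II fell, SDHA by 0.20 ± 0.06 (adjusted p = 0.0143). In complex V, 3 of 5 small membrane subunits, 2 of 4 stalk genes and 2 of 3 c subunit genes were called lower and 0 of 4 F1 genes were called, ATP5F1B having a change of 0.12 ± 0.05 (adjusted p = 0.0985). Here ATP5MC1 fell by 0.17 ± 0.05 and ATP5MC2 by 0.30 ± 0.08, while ATP5MC3 had a change of 0.00 ± 0.08 (adjusted p = 0.994).

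SDHD had the largest fall after smoke extract. Its levels were 8.93, 9.00 and 8.60 in treated cells, against 9.92, 9.76 and 9.88 in untreated cells. The 3 treated arrays lay below all untreated ones, and the fall was 2.02-fold (-1.01 ± 0.22, adjusted p = 0.000858). SDHC gave 10.73, 10.94 and 10.48 in treated cells, against 11.18, 11.19 and 11.23 in untreated cells (-0.48 ± 0.11, adjusted p = 0.00225), but its second row had a change of 0.16 (adjusted p = 0.595 over all rows). SDHA gave 10.23, 10.15 and 10.29 in treated cells, against 10.40, 10.43 and 10.42 in untreated cells, without overlap.

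NDUFB4 gave 8.93, 9.25 and 8.49 in treated cells, against 9.73, 9.56 and 9.59 in untreated cells. The groups did not overlap, though the treated arrays were spread, and the fall was 1.66-fold (-0.74 ± 0.13, adjusted p = 9.58e-05). NDUFA8 rose, at 9.26, 9.41 and 9.15 in treated cells, against 8.89, 8.71 and 8.79 in untreated cells (0.48 ± 0.12, adjusted p = 0.00356). NDUFB5 (-0.57 ± 0.16), NDUFA3 (-0.56 ± 0.10) and NDUFA1 (-0.55 ± 0.15), accessory subunits of complex I, fell with adjusted p from 0.000118 to 0.0102. In complex III, UQCRH gave 5.69, 5.94 and 5.52 in treated cells, against 6.31, 6.20 and 6.54 in untreated cells, a fall without overlap (-0.63 ± 0.19, adjusted p = 0.0158), and UQCR11 (-0.60 ± 0.17), UQCR10 (-0.50 ± 0.10) and UQCRC2 (-0.40 ± 0.12) fell too.

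COX7B gave 8.02, 8.25 and 7.48 in treated cells, against 8.98, 8.61 and 8.56 in untreated cells, and fell 1.74-fold (-0.80 ± 0.26, adjusted p = 0.0275). All treated arrays were the lower ones. COX6A1 (-0.65 ± 0.17), COX5B, which binds zinc (-0.64 ± 0.18), and COX6B1 (-0.53 ± 0.13) fell with adjusted p from 0.00289 to 0.0111. In complex V, the pseudogene ATP5F1EP2 gave 9.09, 9.23 and 8.67 in treated cells, against 10.09, 10.01 and 9.65 in untreated cells (-0.93 ± 0.24, adjusted p = 0.00443). ATP5MK (-0.78 ± 0.24, adjusted p = 0.0202), ATP5MJ (-0.58 ± 0.12, adjusted p = 0.000626) and the stalk gene ATP5PB (-0.45 ± 0.10, adjusted p = 0.00168) fell with it.

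Of these 20 named changes, 7 passed under all of the alternatives: NDUFB4, NDUFA3, NDUFA8, SDHD, UQCR10, ATP5MJ and ATP5PB. Without smoke extract 24 h replicate 3, 11 calls ended (adjusted p from 0.0512 to 0.221), those of NDUFB5, NDUFA1, UQCRH, UQCR11, UQCRC2, COX7B, COX6A1, COX5B, COX6B1, ATP5F1EP2 and ATP5MK. Without untreated 24 h replicate 1, 6 ended (adjusted p from 0.0526 to 0.143), those of NDUFB5, NDUFA1, UQCR11, UQCRC2, COX7B and ATP5MK. COX7B also lost its call without untreated 24 h replicate 2 (0.0501), UQCRH without untreated 24 h replicate 3 (0.0887), COX7B, UQCRH and UQCR11 without smoke extract 24 h replicate 1 (0.051 to 0.0523), and SDHA without smoke extract 24 h replicate 2 (0.0915).

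After cisplatin alone, 15 of the 79 genes fell and 0 rose, where 1.65% of all genes were called lower and 2.15% higher. The median change was -0.23, beside -0.02 over all genes. Called members were 6 in complex I, 0 of 3 in complex II, 1 in complex III, 3 in complex IV and 5 in complex V, 4 of these among the 5 small membrane subunits. The count was 8 without any 1 of the 3 untreated 24 h arrays and 5 without cisplatin 24 h replicate 2. Averaged over the 3 pretreatments, with each cisplatin group set against its own pretreatment without cisplatin, the count was 30, of which 29 were lower, where 3.22% of all genes were called lower and 1.81% higher.

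NDUFB4 had levels of 8.98, 8.55 and 9.02 in cisplatin-treated cells, against 9.73, 9.56 and 9.59 in untreated cells, without overlap (-0.78 ± 0.13, adjusted p = 0.000348). UQCR10 gave 8.89, 8.57 and 8.83 in treated cells, against 9.28, 9.33 and 9.25 in untreated cells (-0.52 ± 0.10, adjusted p = 0.00209). ATP5MK gave 10.73, 9.27 and 10.88 in treated cells, against 11.26, 11.13 and 11.08 in untreated cells. Its second cisplatin array lay far below the others of the group, and the change was -0.86 ± 0.24 (adjusted p = 0.0329). SDHD showed the same array standing low, at 9.68, 8.60 and 9.75 in treated cells, against 9.92, 9.76 and 9.88 in untreated cells, and was not called (-0.51 ± 0.22, adjusted p = 0.18). Nor were SDHC (-0.32 ± 0.11) and SDHA (-0.03 ± 0.06).

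Other falls after cisplatin were those of NDUFA2 (-0.52 ± 0.14), NDUFA3 (-0.50 ± 0.10) and NDUFS3 (-0.43 ± 0.08) in complex I, COX6A1 (-0.67 ± 0.17), COX6B1 (-0.51 ± 0.13) and COX5A (-0.25 ± 0.07) in complex IV, and ATP5MG (-0.55 ± 0.12), ATP5ME (-0.52 ± 0.09) and ATP5MJ (-0.46 ± 0.12) in complex V, with adjusted p from 0.000448 to 0.0273. The calls of NDUFB4, NDUFA3, UQCR10 and ATP5ME passed under all alternatives. Without cisplatin 24 h replicate 2, those of NDUFA2, COX6A1, COX6B1, COX5A, ATP5MK, ATP5MG and ATP5MJ ended (adjusted p from 0.06 to 0.324). Without untreated 24 h replicate 1, those of NDUFA2, COX6A1, COX6B1, ATP5MK and ATP5MJ ended (0.0557 to 0.108), without replicate 2 those of NDUFA2, COX5A, ATP5MK and ATP5MJ (0.0772 to 0.125) and without replicate 3 those of NDUFA2, COX6A1, COX6B1, COX5A and ATP5MK (0.0629 to 0.114).

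Nicotine alone gave 0 called members with limma at 24 h, where 0.00543% of all genes were called lower and 0.00% higher. At an unadjusted p under 0.05 the test gave 14 of the 79 genes and 1074 of all 18417. The median change was -0.11, beside -0.02 over all genes, and 64 of the 79 had a change below 0. The smallest p belonged to NDUFS3, at 9.57, 9.32 and 9.16 in nicotine-treated cells, against 9.74, 9.71 and 9.82 in untreated cells, with a change of -0.41 ± 0.08 (adjusted p = 0.178), and to NDUFA3, at 9.53, 9.38 and 8.91 in nicotine-treated cells, against 9.61, 9.70 and 9.77 in untreated cells, with a change of -0.42 ± 0.10 (adjusted p = 0.345). Without nicotine 24 h replicate 1, 2 members were called.

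With radiation + smoke extract, 45 genes fell and 0 rose, where 15.4% of all genes were called lower and 11.6% higher, with a median of -0.37 beside 0.02 over all genes. COX7B (-1.20 ± 0.26), SDHD (-1.14 ± 0.22), ATP5MK (-0.89 ± 0.24), NDUFB4 (-0.84 ± 0.13), COX6A1 (-0.78 ± 0.17), NDUFA3 (-0.78 ± 0.10), UQCR10 (-0.77 ± 0.10), NDUFA1 (-0.76 ± 0.15) and NDUFA9 (-0.75 ± 0.09) fell by the most, with adjusted p from 1.32e-08 to 0.00375. SDHD stood at 8.57, 8.17 and 9.41 in these cells, against 9.92, 9.76 and 9.88 in untreated cells. ATP5MJ (-0.74 ± 0.12), COX6C (-0.66 ± 0.16), ATP5F1EP2 (-0.66 ± 0.24), COX6B1 (-0.64 ± 0.13), ATP5ME (-0.62 ± 0.09), UQCR11 (-0.50 ± 0.17), SDHC (-0.45 ± 0.11), UQCRC2 (-0.42 ± 0.12), UQCRQ (-0.40 ± 0.10) and SDHA (-0.24 ± 0.06) fell as well. ATP5F1A was the 1 F1 gene called (-0.24 ± 0.06, adjusted p = 0.00202; named after its value was seen). Leaving out 1 array gave 30 to 51 called members. Without radiation + smoke extract 24 h replicate 2 the calls of UQCR11, ATP5F1EP2, UQCRC2 and ATP5MK ended (adjusted p from 0.0599 to 0.197), and UQCR11 and ATP5F1EP2 also lost theirs without replicate 1 of that group (0.0926 and 0.149) and without untreated 24 h replicates 1 (0.0838 and 0.12) or 2 (0.0522 and 0.0909), UQCR11 also without untreated 24 h replicate 3 (0.0511).

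With radiation + nicotine, 27 genes fell and 1 rose, where 11.7% of all genes were called lower and 8.21% higher, and the median was -0.21. The falls of SDHD (-0.86 ± 0.22), NDUFB4 (-0.69 ± 0.13), UQCR10 (-0.67 ± 0.10), NDUFS3 (-0.61 ± 0.08), NDUFA2 (-0.55 ± 0.14), NDUFA3 (-0.52 ± 0.10), ATP5MJ (-0.51 ± 0.12), ATP5ME (-0.42 ± 0.09) and ATP5MC1 (-0.40 ± 0.05) passed under all alternatives. The count was 15 without untreated 24 h replicate 3 and otherwise at most 30. Those of COX7B (-0.79 ± 0.26), ATP5MK (-0.65 ± 0.24), UQCRH (-0.59 ± 0.19), COX5B (-0.53 ± 0.18), COX6A1 (-0.51 ± 0.17), COX6B1 (-0.39 ± 0.13) and UQCRC2 (-0.35 ± 0.12), and the rise of UQCRBP1 (0.68 ± 0.19), passed with all arrays (adjusted p from 0.0081 to 0.0489). On leaving out 1 array, calls among these 8 ended without untreated 24 h replicate 1 (6 calls), 2 (3 calls) or 3 (7 calls) and without radiation + nicotine 24 h replicate 2 (7 calls) or 3 (7 calls), with adjusted p from 0.0516 to 0.161.

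Cisplatin + smoke extract gave the highest count, 46 genes lower and 3 higher, where 12.4% of all genes were called lower and 9.93% higher. The median was -0.31, beside 0.06 over all genes, and leaving out 1 array gave 42 to 47. The largest falls were those of SDHD (-1.14 ± 0.22), ATP5F1EP2 (-1.06 ± 0.24), COX7B (-1.04 ± 0.26), ATP5MK (-1.03 ± 0.24), COX6A1 (-0.98 ± 0.17), COX5B (-0.98 ± 0.18), COX6B1 (-0.87 ± 0.13), UQCRH (-0.85 ± 0.19), NDUFB4 (-0.83 ± 0.13), NDUFS4 (-0.81 ± 0.15), UQCR11 (-0.80 ± 0.17) and NDUFA2 (-0.78 ± 0.14), with adjusted p from 1.67e-06 to 0.00248. COX7B stood at 7.62, 7.65 and 7.75 in these cells, against 8.98, 8.61 and 8.56 in untreated cells, so this group was tight where the others spread. NDUFS4, a subunit of the matrix arm that is phosphorylated in vivo, has a second row at a low mean, which had a change of 0.07 (adjusted p = 0.759). NDUFA3 (-0.73 ± 0.10), ATP5MJ (-0.67 ± 0.12), UQCR10 (-0.67 ± 0.10), ATP5MG (-0.60 ± 0.12), SDHC (-0.56 ± 0.11) and UQCRQ (-0.39 ± 0.10) fell too. The genes that rose were UQCRBP1 (0.58 ± 0.19), NDUFA8 (0.43 ± 0.12) and ATP5F1B, the catalytic beta subunit (0.17 ± 0.05, adjusted p = 0.00884). The call of ATP5F1B ended without untreated 24 h replicate 2 (0.0612) or cisplatin + smoke extract 24 h replicate 3 (0.0552), and that of UQCRBP1 without untreated 24 h replicate 3 (0.199) or cisplatin + smoke extract 24 h replicate 2 (0.0581) or 3 (0.103).

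Cisplatin + nicotine gave 31 lower and 1 higher, where 7.46% of all genes were called lower and 2.85% higher, and a median of -0.18. ATP5F1EP2 (-1.05 ± 0.24), SDHD (-1.05 ± 0.22), UQCRH (-1.02 ± 0.19), NDUFA1 (-0.75 ± 0.15), COX6A1 (-0.75 ± 0.17), COX5B (-0.72 ± 0.18), NDUFB4 (-0.71 ± 0.13), NDUFA2 (-0.69 ± 0.14), NDUFA3 (-0.64 ± 0.10), ATP5MJ (-0.55 ± 0.12), UQCR10 (-0.50 ± 0.10) and UQCRC2 (-0.49 ± 0.12) fell under all alternatives. SDHD stood at 8.91, 9.00 and 8.52 in these cells, against 9.92, 9.76 and 9.88 in untreated cells. COX7B (-0.90 ± 0.26), ATP5MK (-0.74 ± 0.24), UQCR11 (-0.69 ± 0.17), COX6C (-0.64 ± 0.16), ATP5MGL (-0.41 ± 0.12) and SDHC (-0.39 ± 0.11) fell and NDUFA8 rose (0.39 ± 0.12) with all arrays in the fit. On leaving out 1 array, calls among these 7 ended without untreated 24 h replicate 1 (4 calls), 2 (3 calls) or 3 (5 calls) and without cisplatin + nicotine 24 h replicate 1 (2 calls), 2 (6 calls) or 3 (5 calls), with adjusted p from 0.0503 to 0.19. The count of called members was 18 without untreated 24 h replicate 3 or cisplatin + nicotine 24 h replicate 3, and 19 without cisplatin + nicotine 24 h replicate 2. All these comparisons share the 3 untreated arrays of 24 h, so their calls are not independent of each other.

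At 2 h, limma called 0 members in all 8 comparisons with untreated cells of that time. There 1.70% of all gene tests, pooled over those comparisons, were called, and shares by comparison are not given. At an unadjusted p under 0.05, from 0 to 2 of the 79 genes passed in each, and from 109 to 2591 of all 18417. Median changes of the 79 ran from -0.04 for cisplatin to 0.05 for radiation and for cisplatin + nicotine. NDUFB4 stood at 9.83, 9.80 and 9.70 in irradiated cells at 2 h, against 9.71, 9.71 and 9.63 in untreated cells, and SDHD at 10.02, 9.99 and 9.94 in irradiated cells, against 9.88, 10.09 and 9.83 in untreated cells, so that neither was lower after radiation at this time. The smallest p values were those of SDHA (0.12 ± 0.06, adjusted p = 0.87) and NDUFA11 (0.23 ± 0.12, adjusted p = 0.89) after radiation, NDUFS7 (-0.19 ± 0.10) and NDUFA3 (-0.18 ± 0.10) after cisplatin, COX7B2 (0.21 ± 0.10) and NDUFS8 (-0.22 ± 0.11) after smoke extract, and NDUFS3 (0.14 ± 0.08) and COX4I1 (0.11 ± 0.07) after nicotine. In the combined groups they were COX4I1 (0.16 ± 0.07) and NDUFA3 (-0.17 ± 0.10) for radiation + smoke extract, SDHA (0.12 ± 0.06) and NDUFS3 (0.18 ± 0.08) for radiation + nicotine, UQCRBP1 (-0.45 ± 0.19) and COX4I1 (0.14 ± 0.07) for cisplatin + smoke extract, and NDUFA6 (0.15 ± 0.08) and ATP5MG (0.21 ± 0.12) for cisplatin + nicotine, none of them called.

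Time alone was tested with untreated 24 h against untreated 2 h, and limma called 0 members (1.92% of all genes), with 2 of the 79 and 2468 of all 18417 genes at an unadjusted p under 0.05. The 2 members were NDUFA5 (-0.50 ± 0.21, adjusted p = 0.252) and COX6B2 (0.30 ± 0.14, adjusted p = 0.314). Whether an effect differed between the times was then tested as the effect at 24 h minus that at 2 h, a contrast chosen after the data had been seen. For radiation, 31 members were lower and 1 higher in this difference (13.0% of all genes were called), led by COX7B (-1.41 ± 0.37, adjusted p = 0.00596), ATP5MK (-1.30 ± 0.34, adjusted p = 0.00705) and SDHD (-1.13 ± 0.31, adjusted p = 0.0098), with UQCRBP1 the 1 that was higher (0.83 ± 0.27, adjusted p = 0.0334). For smoke extract 4 members were lower (6.29% of all genes were called): SDHD (-1.03 ± 0.31, adjusted p = 0.0348), NDUFB4 (-0.71 ± 0.19, adjusted p = 0.0187), ATP5MJ (-0.60 ± 0.17, adjusted p = 0.0282) and, named after its value was seen, NDUFS3 (-0.55 ± 0.12, adjusted p = 0.0035). For cisplatin limma called 0 members (0.141% of all genes), with 17 of the 79 and 2098 of all 18417 genes at an unadjusted p under 0.05. The smallest p were those of ATP5ME (-0.52 ± 0.13, adjusted p = 0.0847) and UQCR10 (-0.55 ± 0.15, adjusted p = 0.129).

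Whether radiation and smoke extract added up was tested by their interaction at 24 h, which called 4 members (2.57% of all genes either way). All 4 members had a positive value, that is, a combined fall smaller than the sum of the single ones. Among all genes called in it, more had a negative value than a positive one. These were NDUFB4 (0.84 ± 0.19, adjusted p = 0.0072), ATP5F1EP2 (1.17 ± 0.33, adjusted p = 0.0444), ATP5PB (0.56 ± 0.15, adjusted p = 0.0276) and, named after its value was seen, NDUFB1 (0.51 ± 0.15, adjusted p = 0.0458). NDUFB4 stood at 8.74, 8.64 and 8.96 with both agents, 8.58, 8.61 and 8.84 with radiation alone, 8.93, 9.25 and 8.49 with smoke extract alone and 9.73, 9.56 and 9.59 in untreated cells. The median interaction of the 79 was 0.18, beside -0.03 over all genes. The count moved with single arrays: it was 26 without radiation 24 h replicate 3, 16 without radiation + smoke extract 24 h replicate 2, 12 without smoke extract 24 h replicate 2, 1 without radiation + smoke extract 24 h replicate 3, untreated 24 h replicate 1 or 2, smoke extract 24 h replicate 1, or radiation 24 h replicate 1 or 2, and 0 without smoke extract 24 h replicate 3. Set against radiation alone, radiation + smoke extract gave 0 called members with limma (8.23% of all genes), with 4 of the 79 and 3008 of all 18417 genes at an unadjusted p under 0.05. The smallest p were those of NDUFA12 (0.35 ± 0.13, adjusted p = 0.098) and SDHA (-0.16 ± 0.06, adjusted p = 0.0983), and 1 member was called without radiation 24 h replicate 3 or radiation + smoke extract 24 h replicate 2 or 3.

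Set against cisplatin alone, cisplatin + smoke extract gave 10 members lower and 3 higher, where 28.6% of all genes were called. Those lower by the most were NDUFA5 (-0.78 ± 0.21, adjusted p = 0.00568), SDHD (-0.62 ± 0.22, adjusted p = 0.0307) and NDUFB5 (-0.55 ± 0.16, adjusted p = 0.00905), and the 3 higher were the tissue-restricted isoforms COX8C (0.47 ± 0.14), COX6A2 (0.39 ± 0.10) and COX7A1 (0.37 ± 0.13). The silent-family mean differed between these groups too, at 5.04 with both agents and 4.80 with cisplatin alone, and with it as a covariate 1 member was called. The count was 32 without cisplatin 24 h replicate 2, 5 without replicate 1 and 1 without replicate 3 of that group, and 7 without cisplatin + smoke extract 24 h replicate 3. The interaction of smoke extract and cisplatin called 0 members with limma (0.152% of all genes), with 12 of the 79 and 4137 of all 18417 genes at an unadjusted p under 0.05. The smallest p were those of NDUFS3 (0.49 ± 0.12, adjusted p = 0.0557) and NDUFB4 (0.69 ± 0.19, adjusted p = 0.0761), and 1 or 2 members were called without cisplatin 24 h replicate 2 or cisplatin + smoke extract 24 h replicate 2.

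Radiation set against cisplatin at 24 h gave 3 members lower and 1 higher (13.0% of all genes): NDUFA9, an accessory subunit at the joint of the arms of complex I (-0.40 ± 0.09, adjusted p = 0.00187), NDUFA6 (-0.25 ± 0.08, adjusted p = 0.0293) and ATP5MC1 (-0.25 ± 0.05, adjusted p = 0.000327) were lower after radiation and the ATP synthase inhibitor ATP5IF1 was higher (0.21 ± 0.07, adjusted p = 0.0485). The count was 27 without cisplatin 24 h replicate 2, 19 without radiation 24 h replicate 3, and 2 without radiation 24 h replicate 2 or cisplatin 24 h replicate 3. Smoke extract set against nicotine at 24 h gave 6 members lower and 1 higher (12.8% of all genes either way). Among all genes called in this contrast, more were higher than lower. SDHD (-0.74 ± 0.22, adjusted p = 0.0179), ATP5F1EP2 (-0.78 ± 0.24, adjusted p = 0.02) and NDUFB4 (-0.49 ± 0.13, adjusted p = 0.00975) were lower by the most after smoke extract, and NDUFA8 was higher (0.34 ± 0.12, adjusted p = 0.0464). This count was 23 without nicotine 24 h replicate 3, 16 without smoke extract 24 h replicate 2, 1 without smoke extract 24 h replicate 3 and 0 without nicotine 24 h replicate 1 or 2.

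Over all 18 groups, the F test of limma called 67 of the 79 genes, where 60.1% of all genes were called: 29 of 33 in complex I, 3 of 3 in complex II, 7 of 8 in complex III, 12 of 16 in complex IV and 16 of 19 in complex V. ATP5MC1 had the smallest adjusted p (3.82e-17), with group means from 11.82 in radiation + smoke extract at 24 h to 12.37 in the same treatment at 2 h, followed by NDUFS3 (7.55e-17), with group means from 9.07 in radiation + smoke extract at 24 h to 9.97 in radiation + nicotine at 2 h. Among the 12 genes not called were the core subunits NDUFS1 and NDUFV1, the complex IV subunit COX4I1 and the F1 genes ATP5F1C and ATP5F1D. The 6 isoforms of complex IV that are restricted to certain tissues, such as muscle, testis or lung, were described by their ranges over the 54 arrays: COX7B2 ran from 3.43 to 4.00, COX6B2 from 4.45 to 5.29, COX8C from 4.71 to 5.66, COX7A1 from 5.38 to 6.29, COX4I2 from 5.48 to 6.45 and COX6A2 from 6.84 to 7.64. None of these 6 was called against untreated cells in any of the 16 comparisons.

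Other genes of the pathway were taken from a list of 61 assembly factors, electron carriers and factors of transcription and mitochondrial DNA upkeep, of which 54 were measured. After radiation at 24 h, 22 of these fell and 1 rose, where 11.0% of all genes were called lower and 10.0% higher: 16 of 37 assembly factors, 1 of 2 electron carriers and 5 of 15 transcription and upkeep factors fell. NDUFAF4, an assembly factor of complex I, fell by 1.26 ± 0.21 (adjusted p = 8.33e-06), COA7, of complex IV assembly, by 0.53 ± 0.12 (adjusted p = 0.00058) and COA3, likewise, by 0.49 ± 0.11 (adjusted p = 0.00058). The gene that rose was PPARGC1A, a coactivator of respiratory genes (0.75 ± 0.11, adjusted p = 5.53e-07). After smoke extract 8 fell and 2 rose, where 7.40% of all genes were called lower and 8.67% higher. Those that fell included NDUFAF4 (-0.74 ± 0.21), TIMMDC1 (-0.54 ± 0.15) and NDUFAF3 (-0.45 ± 0.08), and those that rose were PPRC1 (0.37 ± 0.10) and POLRMT, the mitochondrial RNA polymerase (0.36 ± 0.09), with adjusted p from 2.59e-05 to 0.00995. After cisplatin 1 of the 54 fell, NDUFAF3 (-0.26 ± 0.08, adjusted p = 0.0393), where 1.65% of all genes were called lower, and after nicotine limma called 0 (0.00543% of all genes lower). Radiation + smoke extract gave 23 lower and 1 higher (15.4% and 11.6% of all genes), radiation + nicotine 22 and 1 (11.7% and 8.21%), cisplatin + smoke extract 15 and 3 (12.4% and 9.93%), and cisplatin + nicotine 11 and 0 (7.46% and 2.85%).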

How the data were processed

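Per the labels, 54 one-colour arrays of NCI-H460 RNA form 18 groups of 3 biological replicates, grouped by sample title. The deposited values are taken as log2 expression: the base is inferred from their range, so folds rest on it. Affymetrix Power Tools 1.15.0 made the deposited table, per the submitters' processing notes; for summarization and normalization, a method is not given in the sources used here. By the platform annotation, 19460 of 33297 rows had exactly 1 symbol, 1754 several and 12083 none. The row with the highest mean stood for each of 18417 genes, and 7 members had 2 rows. Those of NDUFB4 had the same mean and the same changes, so the use of its other row could not alter its calls.

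limma 3.58.1 (R 4.3.3; eBayes with trend) fitted all 18 groups, and p-values were adjusted by Benjamini-Hochberg over all genes of each contrast. The code was tested on simulated data. Members and lists were chosen with earlier results of these data known. Named in each comparison with untreated cells at 24 h are up to 4 called members per complex each way by absolute change, elsewhere up to 3 each way; where none is called, the 2 smallest p values. Alternatives were quantile normalization, no trend, all rows, genes above the median level, a silent-family covariate, a replicate block, only the compared groups, mean effects over pretreatments or therapies, and leaving out each array. After seeing the data, 3 were added: without 6 arrays whose silent-family mean lay over 0.15 from their group's, the lower-mean row, and without pseudogenes, the retrocopy and tissue-restricted isoforms. The number of arrays limits precision. Motifs were searched with Python 3.11.15.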

Additional observations from a re-analysis of the deposited data

Results flagged for a closer look

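The interaction of smoke extract and radiation at 24 h was called for 4 of 79 members, where 2.57% of all genes were called either way, more of them negative. The members were NDUFB1 (0.51), NDUFB4 (0.84), ATP5F1EP2 (1.17) and ATP5PB (0.56), all on the log2 scale. That count ran from 0 to 26 when 1 array was left out and was 0 in a fit of the compared groups alone. The effect of radiation at 24 h differed from that at 2 h for 32 of 79 members, where 13.0% of all genes were called, among them COX7B (-1.41), ATP5MK (-1.30), SDHD (-1.13) and UQCRBP1 (0.83). The effect of smoke extract differed between the same times for 4 of 79 members, where 6.29% of all genes were called, so the share of members lay near that of all genes. The values were -1.03 for SDHD, -0.71 for NDUFB4 and -0.60 for ATP5MJ.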

How the results depend on the processing

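Of 128 member changes named at 24 h, 76 stayed past the threshold under every alternative; of 2082 alternative values 1913 kept direction and side, 167 kept direction only and 2 reversed. Both reversals came from the lower-mean of 2 rows: SDHC after smoke extract (0.16, adjusted p = 0.552) and NDUFS4 after cisplatin + smoke extract (0.0708, adjusted p = 0.759). For member counts the cause of a move was not tested. Cisplatin gave 15 members, but 33 with the silent-family covariate, 30 as the mean over pretreatments, 23 among genes above the median level and 7 with only the compared groups. The interaction of smoke extract and radiation gave 4, but 22 with the covariate, 18 after quantile normalization, 14 above the median level, 2 without trend, 2 over all rows, 1 without the 6 far arrays and 0 with only the compared groups. The interaction with cisplatin gave 0, but 2 with the covariate, 2 after quantile normalization, 1 above the median level and 3 without the far arrays. Smoke extract added to cisplatin gave 13, but 8 after quantile normalization, 7 over all rows, 4 with only the compared groups and 1 with the covariate. Smoke extract added to radiation gave 0, but 1 after quantile normalization and 2 with the covariate. Smoke extract against nicotine gave 7, but 20 with the covariate, 11 after quantile normalization, 2 with only the compared groups and 2 without the far arrays. Radiation against cisplatin gave 4, but 8 without the far arrays and 0 with only the compared groups. Nicotine gave 0, but 1 as the mean over therapies, and untreated 24 h against 2 h gave 0, but 5 with only the compared groups.

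Leaving out 1 array gave 32 to 50 members for radiation, 5 to 18 for cisplatin, 12 to 40 for smoke extract, 0 to 2 for nicotine, 30 to 51 for radiation + smoke extract, 15 to 30 for radiation + nicotine, 42 to 47 for cisplatin + smoke extract and 18 to 28 for cisplatin + nicotine. It gave 0 to 1 for smoke extract added to radiation, 1 to 32 added to cisplatin, 0 to 26 and 0 to 2 for the interactions with radiation and cisplatin, 2 to 27 for radiation against cisplatin, 0 to 23 for smoke extract against nicotine, 61 to 68 for the F test and 0 at 2 h and for untreated 24 h against 2 h.

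Quantile normalization moved the split of all called genes to 2321 higher and 2084 lower for radiation (1850 and 2025 without it), 2972 and 2568 for radiation + smoke extract (2128 and 2828), 2187 and 2015 for radiation + nicotine (1512 and 2147), 1063 and 1214 for cisplatin + nicotine (524 and 1373), 732 and 1036 for smoke extract added to radiation (469 and 1047), 301 and 454 for the interaction with radiation (135 and 339), 1361 and 926 for smoke extract against nicotine (1807 and 542) and 291 and 219 for untreated 24 h against 2 h (163 and 191). The covariate moved it to 535 and 704 for cisplatin (396 and 304), 2002 and 1788 for cisplatin + smoke extract (1828 and 2281), 1182 and 1057 for radiation against cisplatin (947 and 1456) and 48 and 7 for the interaction with cisplatin (13 and 15). Members after radiation were 4 higher and 41 lower with quantile normalization, and 5 and 26 after cisplatin + nicotine.

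Replicate numbers are shared across groups, and what a shared number stands for is not given in the sources used here. Deviations of same-numbered arrays correlated at a mean of 0.018, against -0.0095 for other numbers. Their correlations with the same-numbered untreated 24 h array ran from -0.27 to 0.40. With the replicate number as a block the counts were 46 for radiation, 15 for cisplatin, 36 for smoke extract, 0 for nicotine, 44 for radiation + smoke extract, 29 for radiation + nicotine, 49 for cisplatin + smoke extract, 33 for cisplatin + nicotine, 14 for smoke extract added to cisplatin, 4 for the interaction with radiation, 4 for radiation against cisplatin and 6 for smoke extract against nicotine. The number of arrays, 3 per group, limits the precision.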
